A study of Canis lupus familiaris with 45 samples.

Results

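Epithelial genes were followed in subcutaneous fat, a tissue made mainly of adipocytes, vessels, immune cells and connective tissue. The 9 genes KRT5, KRT14, KRT8, KRT18, KRT19, EPCAM, CDH1, CSTA and PERP were chosen by symbol, and every probe set that the array's platform table gives to them was read. For 6 of the 9, of 15115 genes in the whole table, at least 1 probe set had that symbol alone, and these made 11 probe sets. KRT5, KRT14 and KRT19 had none and are not analysed here. A further 5 probe sets listed KRT8 or KRT18 together with other loci and are given apart. The questions were on which arrays epithelial transcripts were present, and whether they moved with AZGP1.

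Keratins are the intermediate filaments of epithelial cells and work in pairs: KRT8 with KRT18 in simple and glandular epithelium, KRT5 with KRT14 in the basal layer of the epidermis. EPCAM and CDH1 (E-cadherin) join neighbouring epithelial cells, PERP is a membrane protein of desmosomes, and CSTA is a protease inhibitor built into the cornified envelope of the skin and also made by myeloid cells. Skin, its glands and, in females, mammary tissue lie next to subcutaneous fat, so epithelial transcripts can enter a fat sample. AZGP1 encodes a secreted glycoprotein linked to lipid breakdown that both adipocytes and gland epithelia can make.

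The samples came from 9 intact female beagles, 4 years old, all given Purina Pro Plan Performance Formula and sampled after a night without food. The 4 control dogs (dogs 1, 3, 4 and 9) received the amount that held their body weight. The 5 ad libitum dogs (dogs 2, 5, 6, 7 and 8) ate freely after the week-0 sample. Each dog gave 1 array at weeks 0, 4, 8, 12 and 24, 45 arrays in all. Values are deposited GCRMA expression values on a scale read as log2, so a difference of 1 is a doubling, and a value above 4 was taken as above background. Array medians lay between 3.60 and 3.83.

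The labelled tissue was borne out by its markers. All 13 adipocyte genes of a marker list were above 4 on all 45 arrays. Genes of skeletal muscle were high on 10 arrays, 5 of each feeding group, with a list mean above 7. The arrays labelled dog 5 and dog 9 at week 8 matched each other's dog by their most dog-specific probe sets, and the other 43 arrays matched their label. The week-24 array of control dog 4 stood apart from all the others in its epithelial genes. Results that rest on these arrays are given with and without them.

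KRT8 and KRT18, the keratin pair of simple epithelium, were above background on that 1 array and no other. KRT8 read 9.53 in control dog 4 at week 24, against 2.73 to 3.05 on the other 44 arrays. The brighter KRT18 probe set read 11.33 there and at most 3.91 elsewhere, and the second read 10.71 there and at most 2.88 elsewhere. The 3 keratin probe sets therefore told the same array from the rest without overlap. Of the 5 probe sets that list KRT8 or KRT18 with other loci, 3 read 8.69, 9.55 and 4.25 on this array and at most 2.24 on the others, whereas 2 were at background on all 45. None of these keratin probe sets passed the filter for testing, which asked for a value above 4 on at least 4 arrays. In bulk tissue, fewer cells of a type and less RNA per cell cannot be told apart, here and in every result below.

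**Figure D1:**
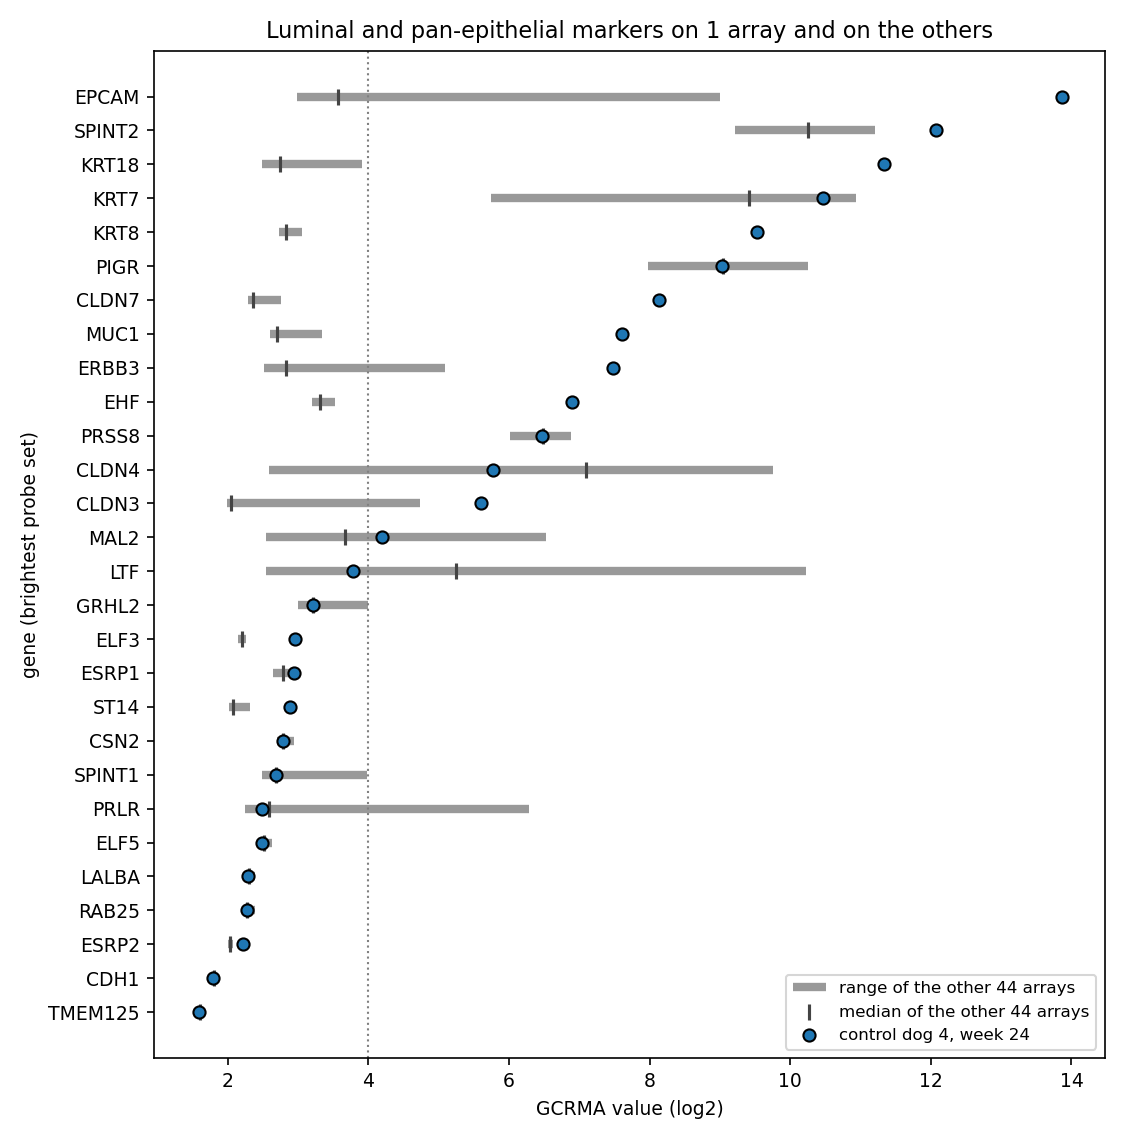
Log2 GCRMA values of luminal and pan-epithelial marker genes at their brightest probe set, with the week-24 array of control dog 4 as a point and the range and median of the other 44 arrays as a grey bar and a tick. The dotted line marks the background limit of 4. KRT8, KRT18, CLDN7, MUC1 and EHF were above it on this array alone, EPCAM was highest there at 13.86, and CDH1 was at background on every array.

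Some other epithelial genes rose above background with the keratins on the array of control dog 4 at week 24, and others did not. Of 20 genes of a luminal and gland epithelium list on the array, 9 were above 4 there, against 2 to 5 on the others. Of 14 pan-epithelial genes, 6 were, against 2 to 5, a small step. These counts include KRT7, PIGR, SPINT2 and PRSS8, which were above 4 on all 45 arrays. In the same lists ESRP1 (2.94), GRHL2 (3.21), RAB25 (2.27), SPINT1 (2.68) and ST14 (2.89) were at background on this array. LTF read 3.78 there and reached 10.22 elsewhere. CLDN7, a tight-junction claudin, read 8.14 against at most 2.75 elsewhere, and MUC1, an apical mucin, read 7.61 against at most 3.34. The epithelial transcription factor EHF read 6.90 there and at most 3.53 on the others. Among 14 genes of desmosomes and adherens junctions, 7 were above 4 there, against 5 to 7 on the others, so that list did not stand apart. In it the desmosomal cadherin DSC2 read 8.77 against at most 3.44, while PKP2, at 2.91, was at background there and reached 6.91 elsewhere. Of 4 mesothelial genes, 2 were above 4, against 0 to 1 elsewhere: UPK3B (6.54 against at most 2.40) and UPK1B (5.24 against at most 1.96). CALB2, also of that list, was at background there, at 2.84, and above 4 on 28 of the other 44 arrays. The brightest WT1 probe set was at background on all 45 arrays, while a second WT1 probe set read 7.72 on this one and at most 2.41 elsewhere, so the WT1 probe sets disagree.

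Genes of the epidermis did not share this pattern. Of 12 differentiated keratinocyte genes, 0 were above 4 in control dog 4 at week 24, and neither was any of 9 hair follicle and sebaceous gland genes. TP63 and COL17A1, which mark the basal epidermis, were at background on all 45 arrays, while ITGA6, ITGB4, DST and LAMB3, which other cells also express, were above 4 on all 45. The milk genes LALBA and CSN2 were at background on every array. The adipocyte genes kept a list mean of 12.24 on this array, inside the 11.85 to 13.88 of the others. Skeletal muscle genes averaged 9.80 there, and actin read 5.86 higher at its 3' end than at its 5' end, above the 1.35 to 5.53 of the other arrays. The part of muscle and of RNA quality in these epithelial values was not tested.

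Across all probe sets, 123 read more than 4 above each of the other 44 arrays in control dog 4 at week 24, and they covered 77 genes with 1 symbol. The next array, control dog 4 at week 8, had 19 such probe sets. The following genes were chosen after their values were seen. TEKT1, a tektin of cilia and flagella, read 10.17 against at most 2.16 elsewhere. RSPH1, a radial spoke protein, read 9.47 against at most 2.85, and the axonemal dynein DNAH9 read 8.15 against at most 2.81. OVGP1, the oviduct glycoprotein, read 9.12 against at most 3.77. PGR, the progesterone receptor, read 8.53 against at most 2.76.

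A few epidermal genes were above background together on 2 other arrays. KRT10 and KRT1, the keratin pair of the upper epidermis, and KRTDAP, a protein of differentiating keratinocytes, were above 4 together on the arrays of control dog 3 at week 0 and ad libitum dog 7 at week 24. KRT10 read 6.45 and 7.55 on them and at most 2.90 on the other 43. KRTDAP read 7.64 and 4.81, and KRT1 4.76 and 5.50, with the other 43 arrays at most at 2.15 and 2.29. The inner-root-sheath keratin KRT71 and the follicle keratin KRT17 were above 4 only in control dog 3 at week 0, at 5.89 and 5.17. They were the 2 of 9 hair follicle and sebaceous gland genes above 4 there. Each of the 2 arrays had 4 of the 12 differentiated keratinocyte genes above 4: KRT1, KRT10, KRTDAP and SBSN. KRT2, IVL, TGM1, TGM3, DSG1, DSC1 and CALML5 of that list were at background on all 45 arrays. KRT8 and KRT18 were at background on both arrays, at 2.72 to 2.83 for dog 3 and 2.68 to 2.81 for dog 7. KRT8 with KRT18, or KRT1 with KRT10 and KRTDAP, were thus above background on 3 of 45 arrays. The last 3 genes were named for these values, so the count holds for the named genes alone. Other epithelial genes were not so limited. KRT7, a keratin of simple epithelium, was above 4 on all 45 arrays, at 10.46 in control dog 4 at week 24 and 5.74 to 10.93 on the others. SBSN, a secreted protein of the upper epidermis in the same list as KRT10, was above 4 on 21 arrays, with its highest values in control dog 3 at week 24 (8.42) and ad libitum dog 6 at week 8 (8.20).

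EPCAM, the cell adhesion molecule, was above background far more often than its keratin partners. Its brightest probe set was above 4 on 19 arrays, 18 of them without KRT8 or KRT18. At week 0 the ad libitum dogs 2, 5, 6, 7 and 8 read 7.76, 5.93, 6.74, 8.32 and 6.77, and control dogs 1, 3, 4 and 9 read 3.30, 6.12, 3.54 and 6.08. All 5 ad libitum dogs were above background before free feeding began, as were 2 of 4 controls, and the 2 groups overlapped.

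After week 0 EPCAM was near background in most ad libitum samples. At week 4 ad libitum dogs 2, 5, 6, 7 and 8 read 3.31, 3.55, 3.30, 4.12 and 3.61, and control dogs 1, 3, 4 and 9 read 3.53, 6.59, 4.87 and 9.00. At week 8 they read 4.85, 5.92, 3.33, 3.15 and 3.45 against 3.01, 7.96, 3.65 and 5.04 in the controls. At week 12 the ad libitum dogs lay between 3.00 and 3.53, and the controls read 5.13, 8.67, 3.31 and 5.61. Control dogs 3 and 9 were thus above background at each of weeks 0 to 12, and the highest ad libitum values after week 0 were the 4.85 and 5.92 of the arrays labelled dogs 2 and 5 at week 8. At week 24 the ad libitum dogs lay between 2.99 and 3.60, and control dogs 1, 3 and 9 read 3.39, 3.34 and 3.64, all at background. Control dog 4 read 13.86 in that week.

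Against their own week-0 value, all 5 ad libitum dogs were lower in EPCAM at weeks 4, 12 and 24, with medians of these changes of -3.43, -3.43 and -3.57. At week 8 the median was -3.31, but the array labelled dog 5, which matched dog 9, read 5.92 against 5.93 at week 0. Among the controls, dogs 3, 4 and 9 were higher at week 4 than at week 0, and dog 1 was at background at both. At each of weeks 8, 12 and 24, 2 controls read higher than at week 0 and 2 lower, partly among background values. Control dogs 3 and 9, the controls above background at week 0, also fell by week 24, with changes of -2.78 and -2.44. Of the 10 arrays with muscle genes, 5 were among the 9 of week 0, and the part of muscle in the EPCAM values was not tested. How many of all probe sets were lower in all 5 ad libitum dogs was not counted.

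**Figure D2:**
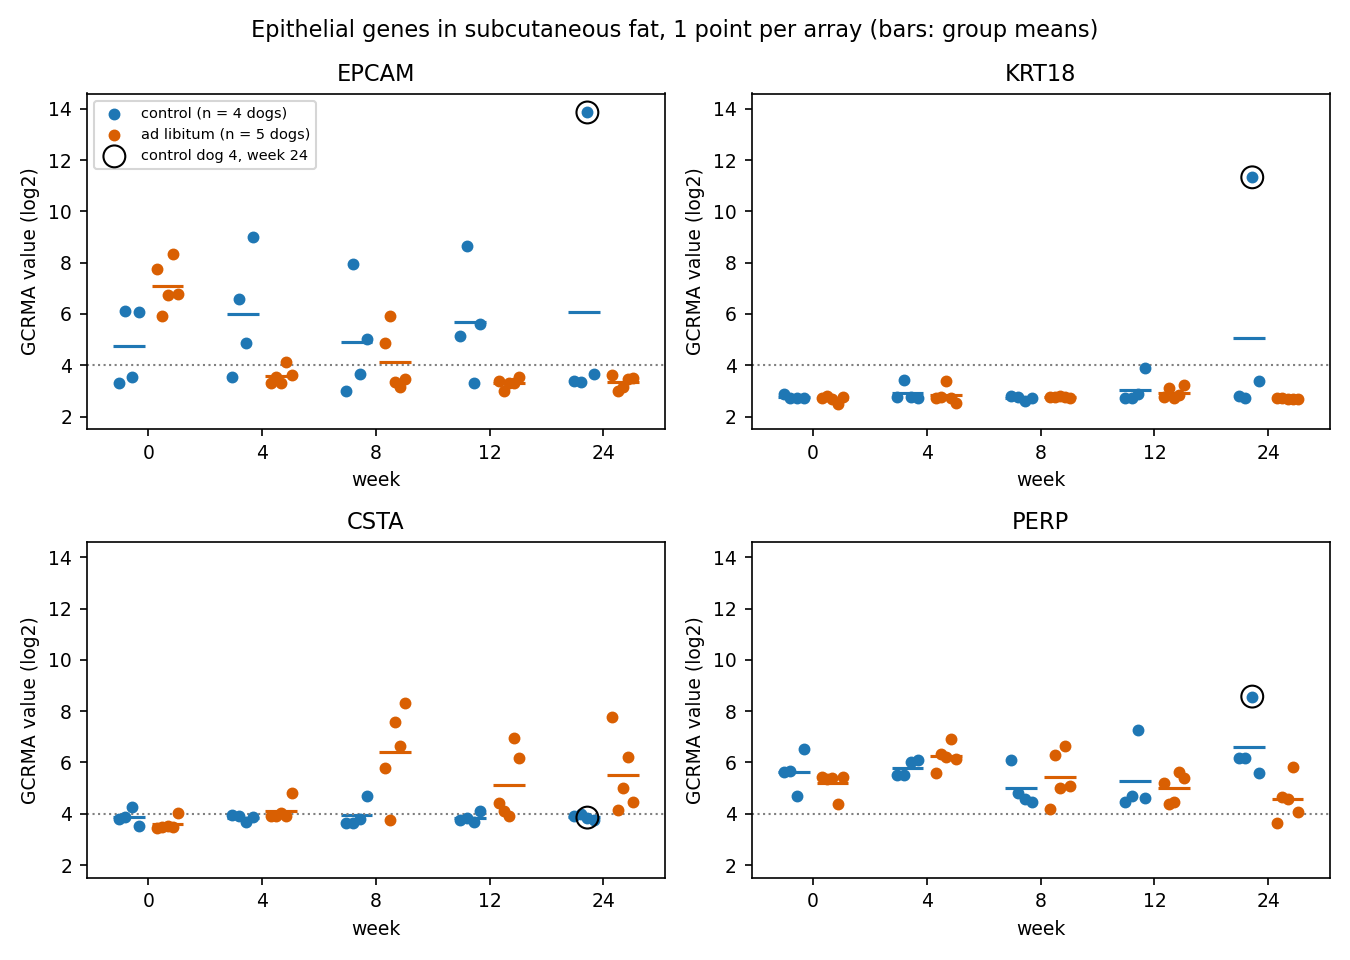
Log2 GCRMA values of EPCAM, KRT18, CSTA and PERP at their brightest probe set by week, 1 point per array, with controls in blue (n = 4), ad libitum dogs in orange (n = 5), bars at group means and a ring around control dog 4 at week 24. EPCAM was above the background limit of 4 (dotted) in all 5 ad libitum dogs at week 0, KRT18 on the ringed array alone, and CSTA mostly in ad libitum dogs from week 8 on.

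No difference in EPCAM between the feeding groups passed the test. All tests were limma fits over 22690 probe sets with Benjamini-Hochberg adjustment, and 4 member probe sets (2 of EPCAM, 1 of CSTA, 1 of PERP) were among those tested. The ad libitum minus control difference of EPCAM was 2.43 at week 0 (SE 1.39, adjusted p = 1), -2.58 at week 4 (SE 1.60, adjusted p = 0.580) and -2.55 at week 12 (SE 1.47, adjusted p = 0.472). At week 8 it was -0.68 (SE 1.36, adjusted p = 0.769), and -1.05 (adjusted p = 0.813) without the arrays labelled dogs 5 and 9. At week 24 it was -2.71 (SE 1.35, adjusted p = 0.228), and -0.09 (adjusted p = 0.978) without the array of control dog 4. No labelled batch held both groups at week 4, so the week-4 differences of every gene rest on batch terms that draw on other weeks.

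At weeks 0, 4 and 12, 0 of the 4 member probe sets passed limma's test, and 0 had an unadjusted p under 0.05. Of all probe sets tested, 0% passed at week 0, 0.0132% at week 4 and 0.00441% at week 12. The feeding effect compares how far each group had moved since week 0, as ad libitum minus control, and was -5.01 for EPCAM at week 4 (SE 2.14, adjusted p = 0.620). It was -3.11 at week 8 (adjusted p = 0.612), -4.99 at week 12 (adjusted p = 0.749) and -5.14 at week 24 (SE 1.93, adjusted p = 0.366). Without control dog 4 at week 24, the last was -2.53 (adjusted p = 0.647). In the feeding effects 0 of 4 member probe sets passed at any of the 4 weeks, while 1, 1, 2 and 2 of them, in order of week, had an unadjusted p under 0.05. Of all probe sets, 0% passed the adjusted threshold at weeks 4, 8 and 12 and 0.022% at week 24. The share of all probe sets with an unadjusted p under 0.05 is not given here, so the unadjusted counts, here and below, have no baseline. Of the 4 member probe sets, 2 are of EPCAM.

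The other EPCAM probe sets were dimmer. The second tested one was above 4 on 8 arrays, with 13.55 in control dog 4 at week 24 and at most 7.72 elsewhere, and the third was above 4 on 2 arrays, with 10.79 and at most 4.54. CDH1 was at background on all 45 arrays, between 1.76 and 1.84, also on the array of control dog 4 at week 24, at 1.79. Its 1 probe set was not tested. It stayed at background even where EPCAM was highest, so whether it can detect CDH1 is not known.

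CSTA was above background on 19 arrays, and its higher values were in ad libitum dogs from week 8 on. At week 8 ad libitum dogs 2, 5, 6, 7 and 8 read 5.80, 3.75, 7.58, 6.65 and 8.33, and control dogs 1, 3, 4 and 9 read 3.64, 3.64, 3.79 and 4.68. All but the array labelled ad libitum dog 5 were above every control, and the highest control was the array labelled dog 9. These are the arrays whose labels appeared exchanged. The difference was 2.61 (SE 0.612, adjusted p = 0.0432), 1 of 4 member probe sets, whereas 1.42% of all probe sets passed at week 8 and 0.291% passed as higher. Without these arrays it was 3.39 (adjusted p = 0.0141). Of the 4 controls 3 were at background, so the size is not exact, and CSTA passed the filter mainly through ad libitum arrays, since 3 control arrays of all weeks were above 4. The call was lost in 10 of 20 alternative settings, with adjusted p from 0.0141 to 0.231, among them leaving out control dog 3 (0.229), control dog 4 (0.143), control dog 9 (0.112), ad libitum dog 6 (0.190) or ad libitum dog 2 (0.119). Within the 4 batches of the labels that held both groups at week 8, the difference was 4.54, 1.13, 3.02 and 2.90. Each set 1 or 2 ad libitum arrays against 1 control array. The second value includes the array labelled dog 5, and the fourth the array labelled dog 9. At week 12 such batches gave -0.17 and 2.33.

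At the other weeks CSTA did not pass the test. At week 12 the ad libitum dogs read 4.43, 4.10, 3.93, 6.96 and 6.18, and at week 24 they read 7.79, 4.14, 5.00, 6.22 and 4.47. The controls lay between 3.67 and 4.11 at week 12 and between 3.76 and 3.98 at week 24. All 5 ad libitum dogs were thus above all 4 controls at week 24, but the controls were at background and the lowest ad libitum value was 4.14. The groups overlapped at week 12. How many of all probe sets separated the groups at week 24 was not counted, while 5.46% passed the test. The difference was 0.52 at week 4 (adjusted p = 0.791), 0.76 at week 12 (SE 0.660, adjusted p = 0.604) and 1.64 at week 24 (SE 0.609, adjusted p = 0.100). Leaving out ad libitum dog 5, the week-24 difference was 1.99 (adjusted p = 0.0152). The number of ad libitum dogs above 4 was 1 of 5 at week 0, 2 at week 4, 4 at weeks 8 and 12 and 5 at week 24.

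Markers of other cell types that make CSTA are given beside it. The 9 myeloid genes on the array had list means of 8.50 to 9.48 in ad libitum dogs and 8.30 to 8.92 in controls at week 8, and 0 of the 9 passed there. Of the 12 differentiated keratinocyte genes, KRT1, KRT10 and KRTDAP were at background on all week-8 arrays, and SBSN alone was above 4 on any. SBSN read 1.92, 5.71, 8.20, 5.17 and 3.88 in ad libitum dogs 2, 5, 6, 7 and 8 at week 8, and 3.71, 3.74, 1.68 and 1.72 in control dogs 1, 3, 4 and 9. It was above background in 3 ad libitum dogs and no control, and its difference of 2.36 did not pass the test. The 2 arrays with KRT1 and KRT10 did not have the highest CSTA: control dog 3 at week 0 read 3.86 and ad libitum dog 7 at week 24 read 6.22. The part of myeloid cells and of keratinocytes in the CSTA difference was not tested.

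PERP, the desmosomal membrane protein, was above 4 on 44 of 45 arrays at its brightest probe set. At week 24 control dogs 1, 3, 4 and 9 read 6.17, 6.18, 8.57 and 5.57, and ad libitum dogs 2, 5, 6, 7 and 8 read 3.65, 4.65, 4.59, 5.83 and 4.06. Ad libitum dog 7 overlapped the controls, and control dog 4 was the highest of all arrays. PERP was lower in the ad libitum dogs at week 24, with a difference of -2.07 (4.19-fold, SE 0.542, adjusted p = 0.0218), 1 of 4 member probe sets. Of all probe sets, 5.46% passed at that week and 1.69% passed as lower. Without the array of control dog 4 the difference was -1.42 (adjusted p = 0.148), and the call was lost in 9 of 20 alternatives, with adjusted p from 0.0207 to 0.358. These include leaving out control dog 4 (adjusted p = 0.0998) or ad libitum dog 2 (0.0836), 6 (0.0630) or 8 (0.0694).

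RNA quality and markers of other cells also differed between the groups at week 24. Actin read 3.18 to 5.86 higher at its 3' end in controls and 2.37 to 4.47 in ad libitum dogs, and 2 of the 4 control arrays and none of the ad libitum ones held muscle genes. Of 13 adipocyte genes 3 passed as higher in the ad libitum dogs (list median 0.66): the lipase LIPE by 1.77 (adjusted p = 0.0356), leptin, LEP, by 2.70 (0.0233) and the glycerol channel AQP7 by 2.10 (0.0201). Without control dog 4 at week 24 the calls of LIPE (adjusted p = 0.0864) and AQP7 (0.0557) were lost. Of 9 smooth muscle and pericyte genes 0 passed, with a median of -0.71, and their list mean was 10.20 in control dog 4, at most 9.06 in the other controls and 8.22 to 9.28 in the ad libitum dogs. The part of these cells in the PERP, CLDN4, PKP2 and KRT7 values of that week was not tested. With actin as a covariate the PERP difference was -1.60 (adjusted p = 0.335), and without the muscle arrays it was -1.31 (adjusted p = 0.358). The change of the group difference from weeks 4 to 12 to week 24 was -2.23 for PERP (SE 0.630, adjusted p = 0.0970). There 0 of 4 member probe sets passed, with 1 at an unadjusted p under 0.05, and 0.383% of all probe sets passed. The other 2 PERP probe sets were not tested: they were at background except for 5.73 at one of them in control dog 4 at week 24.

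**Figure D3:**
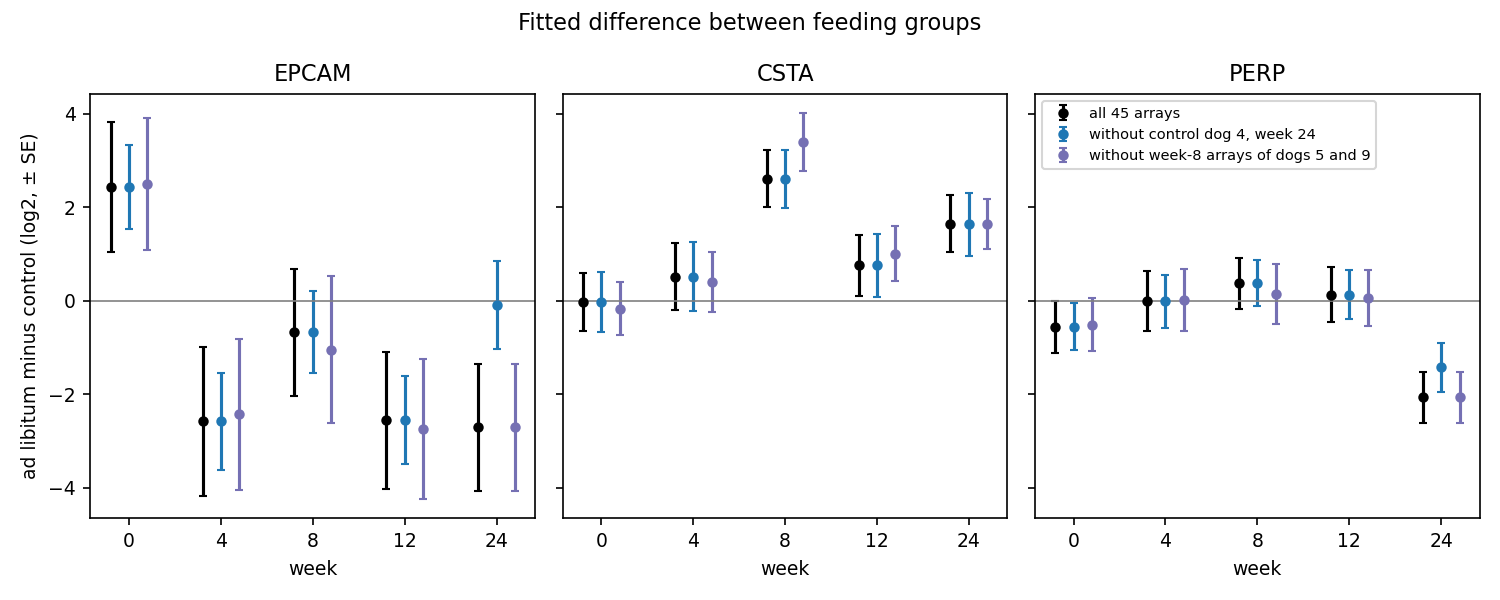
Fitted ad libitum minus control difference (log2, bars ± SE) of EPCAM, CSTA and PERP at each week, over all 45 arrays (black), without the week-24 array of control dog 4 (blue) and without the week-8 arrays labelled dogs 5 and 9 (purple). The week-24 difference of EPCAM moved from -2.71 to -0.09 without the first array, and the week-8 difference of CSTA from 2.61 to 3.39 without the other arrays.

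Other epithelial genes differed in either direction at week 24: CLDN4 and PKP2 were higher in the ad libitum dogs, and KRT7, like PERP, was lower. CLDN4, a tight-junction claudin, read 7.15, 5.19, 6.88, 8.12 and 7.09 in ad libitum dogs 2, 5, 6, 7 and 8 and 5.26, 2.59, 5.77 and 4.69 in control dogs 1, 3, 4 and 9. PKP2, a plakophilin of desmosomes, read 6.68, 3.48, 5.70, 5.89 and 4.43 against 2.62, 2.54, 2.91 and 3.48. Ad libitum dog 5 lay within or level with the controls in both genes, and the other 4 ad libitum dogs were above all controls. CLDN4 was higher by 2.31 (SE 0.686, adjusted p = 0.0419) and PKP2 by 2.35 (SE 0.720, adjusted p = 0.0479). The PKP2 values of all controls were at background, so its size is not exact. CLDN4 was 1 of 5 tested genes of the luminal list at their brightest probe sets (median difference 1.30) and PKP2 1 of 7 tested junction genes (median -0.27), against a median of 0.01 over all probe sets. None of 4 tested pan-epithelial and 4 basal genes passed at that week, and none of these lists' genes passed at week 8. The calls were lost in 13 of 20 alternatives for CLDN4 and 16 of 20 for PKP2, which was 2.35 (adjusted p = 0.109) without control dog 4 at week 24. KRT7 passed at its dimmer probe set alone, with a difference of -1.18 (SE 0.357, adjusted p = 0.0450), and at -1.07 (adjusted p = 0.145) did not pass without control dog 4. The call was lost in 14 of 20 alternatives. At the brighter KRT7 probe set, control dogs 1, 3, 4 and 9 read 10.35, 10.34, 10.46 and 10.52, and the ad libitum dogs 7.48 to 9.57. The difference did not pass, and how many of all probe sets separated the groups was not counted.

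AZGP1 was above background on 15 arrays at its brightest probe set: 14 of the 15 ad libitum arrays of weeks 4 to 12, at 6.72 to 10.17, and the array of control dog 4 at week 24, at 5.71. All 30 others read at most 2.47, among them the array labelled ad libitum dog 5 at week 8, at 2.35. The array labelled control dog 9 at week 8, which matched dog 5, read 2.47. Under either labelling an ad libitum array of that week was at background, and leaving out both arrays removes it. The ad libitum minus control difference was 6.22 at week 4, 4.44 at week 8 and 4.90 at week 12, and -0.81 at week 24 (adjusted p = 0.556), which was 0.04 without control dog 4. Without the arrays labelled dogs 5 and 9 it was 5.40 at week 8. All controls of weeks 4 to 12 were at background, so these sizes are not exact. AZGP1 also passed the filter mainly through the ad libitum arrays of weeks 4 to 12. A second, dimmer AZGP1 probe set was above 4 on 6 arrays, read 3.31 in control dog 4 at week 24, and did not pass at any week. At the brighter probe set, AZGP1 and the keratins KRT8 and KRT18 were above background together on 1 array. The 14 other arrays with AZGP1 had KRT8, KRT18 and CDH1 at background. The 2 arrays with KRT1, KRT10 and KRTDAP had AZGP1 at 2.32 and 2.33.

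EPCAM and AZGP1 were mostly found on different arrays. Of the 15 arrays with AZGP1, 3 had EPCAM above 4, and 16 arrays had EPCAM without AZGP1. CSTA was above 4 on 10 of the 15, and on 9 of the 30 without AZGP1. PERP was above 4 on all 15, but also on 29 of the 30 others. Of the 15 arrays with AZGP1, 14 were ad libitum arrays of weeks 4 to 12, and the same dogs recur among them. These counts therefore follow feeding group and week, and do not show whether the genes move together from array to array. Within group and week, the slope of EPCAM on AZGP1 was 0.37 (SE 0.311, adjusted p = 0.610), and -0.33 without control dog 4 at week 24. That of CSTA was 0.41 per log2 of AZGP1 (SE 0.124, unadjusted p = 0.00235, adjusted p = 0.361), and that of PERP was 0.17 (SE 0.124, adjusted p = 0.566). Without ad libitum dog 5 the CSTA slope was 0.21, and it was 0.26 when the 2 arrays that matched each other's dog were left out instead. In the slopes 0 of 4 member probe sets passed limma's test after adjustment, 1 had an unadjusted p under 0.05, and 0.00441% of all probe sets passed.

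**Figure D4:**
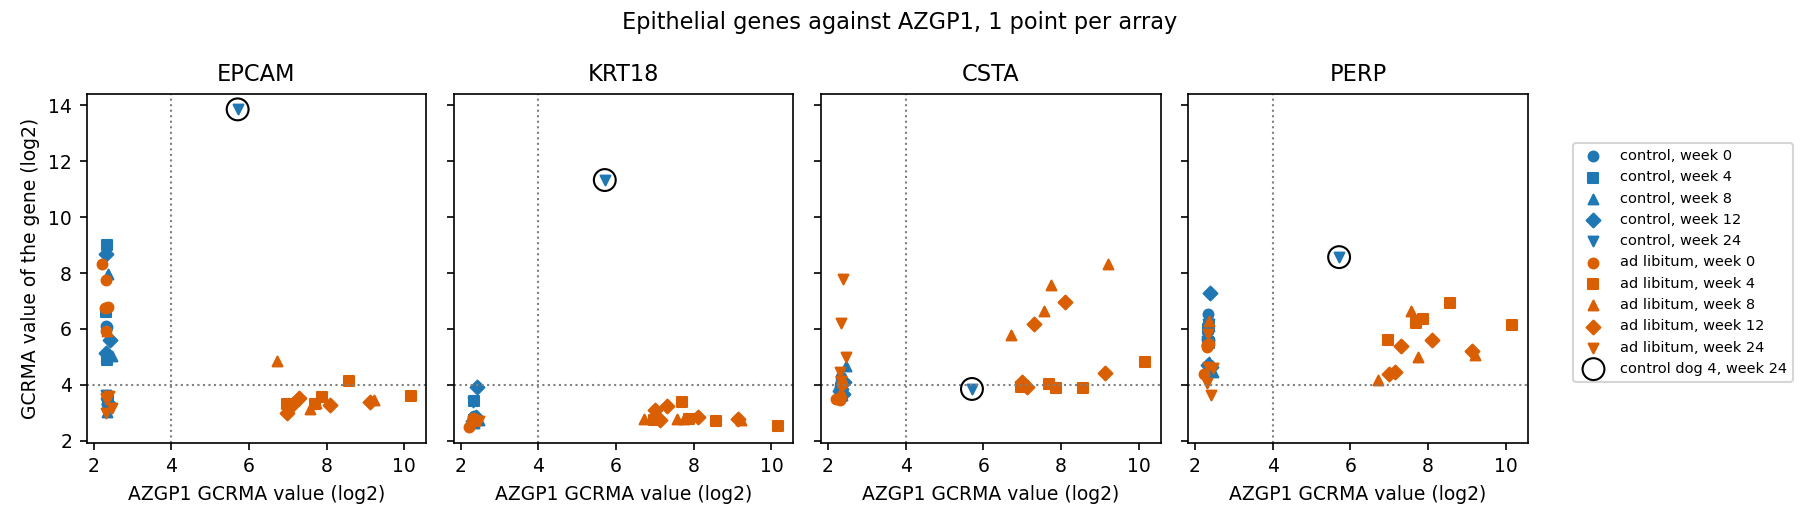
Log2 GCRMA values of EPCAM, KRT18, CSTA and PERP against AZGP1, 1 point per array, by feeding group (colour) and week (shape), with dotted lines at 4 and a ring around control dog 4 at week 24. The 14 other arrays with AZGP1 above 4 had KRT18 at background, and 16 arrays had EPCAM above 4 with AZGP1 below it.

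The genes whose values ran most like each tested member over the 45 arrays are given as a description, since arrays share dogs, batches and RNA quality. For EPCAM they were IFT172 (Pearson's r 0.73), DDR1 (0.72) and CHEK2 (0.69), and without control dog 4 at week 24 they were AGMO (0.81), XDH (0.80) and RALGAPA2 (0.78). The 2 tested EPCAM probe sets correlated at 0.93 over 45 arrays and 0.89 over 44. For CSTA they were MEI1 (0.72), DHRS7 (0.71) and MATN2 (0.71), over 44 arrays as over 45. For PERP they were SSBP2 (0.68), PPP2R2B (0.65) and GDPD2 (0.64), and PROCR (0.67), PCOLCE2 (0.66) and AIF1L (0.65) over 44.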

How the data were processed

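Total RNA was extracted with Trizol, labelled with biotin by the Affymetrix 1-cycle 3' method and hybridised to canine arrays, per the labels' protocols. The deposited table holds the authors' GCRMA values, per the submitters' processing notes, 1 per probe set and array, on a scale read here as log2 from its range of 0.42 to 17.51. Its log base, and whether values were filtered or corrected for batch before deposit, is not given in the sources used here. Of 42924 probe sets beside the 111 controls, 22690 above 4 on at least 4 arrays were tested. Arrays carry no counts, so their number limits the precision.

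In R 4.3.3, limma 3.58.1 with statmod 1.5.0 fitted 10 means, 1 per feeding group and week, a term for labelled batches 1 to 5, and the dog as a random block (correlation 0.00562; 31 residual degrees of freedom). Batch 6 holds all week-24 arrays. p-values were adjusted by Benjamini-Hochberg over all probe sets tested (threshold 0.05). The slope fit added AZGP1, centred within group and week. On simulated data the fit recovered 86% of log2 changes of 2 and 100% of changes of 4 at week 8, and 86% of slopes of 0.5. False calls numbered 11 and 10. The simulated noise was independent between arrays, with no dog effect or outlying array, and the changed probe sets were drawn at random. The rates therefore need not hold for the members or for other weeks. The same 9 dogs recur at each week, and this pairing entered the fit only through the block. At a correlation of 0.00562, arrays of the same dog were treated as almost independent.

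Members and marker lists were chosen with earlier results of these data known. Named are all members, AZGP1, up to 3 list genes past the threshold of each sign, and per member the 3 most correlated genes. Other list genes, such as CLDN7, MUC1, KRT1, KRT10 and KRTDAP, were named for their values on single arrays and not by a test. Alternatives were no filter, quantile normalization, other covariates and blocks, other variance settings, each week alone, and leaving out each dog, the muscle arrays, or the week-8 arrays labelled dogs 5 and 9. Leaving out the week-24 array of control dog 4 was added after seeing the data. Symbols came from the platform table, and probe sets with several symbols were not assigned to 1 gene.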

Additional observations from a re-analysis of the deposited data

Results flagged for a closer look

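In 9 of 32 groups of 4 or 5 arrays tested over 7 genes, 1 array lay far from the others of its group. The array of control dog 4 at week 24 did so for EPCAM (13.86), KRT8 (9.53), KRT18 (11.33) and AZGP1 (5.71). In these genes the other controls of week 24 were at background, so an array well above it was bound to be flagged. Several flags thus share 1 array, and the rate of about 1 in 20 groups that chance would give is no baseline here. CSTA set apart ad libitum dog 8 at week 0 (4.03) and at week 4 (4.82), and the array labelled control dog 9 at week 8 (4.68). PERP set apart ad libitum dog 7 at week 0 (4.39, below the others) and control dog 4 at week 12 (7.28). EPCAM read higher at week 4 than at week 0 in all 4 controls and lower in all 5 ad libitum dogs, with a median of -3.43 in the latter, but control dog 1, at 3.30 and 3.53, was at background both times. The fitted difference of -5.01 did not pass limma's test (adjusted p = 0.620). No labelled batch held both groups at week 4, and how many of all probe sets separated the groups in this way was not counted. The AZGP1 difference between the groups itself differed between week 24 and weeks 4 to 12 by -5.99 (adjusted p = 8.07e-04), and by -5.15 (adjusted p = 0.00420) without control dog 4 at week 24. AZGP1 passed the filter mainly through the ad libitum arrays of weeks 4 to 12, where it was high. The p-values are therefore no separate support.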

How the results depend on the processing

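The count of member probe sets past the threshold at week 8 was 1 (CSTA), and 0 with no filter, with no batch term, without the arrays with skeletal muscle, with actin as a covariate and with that week alone. Leaving out each dog gave 0 to 1. At week 24 the count was 1 (PERP), and 0 without the muscle arrays, with actin as a covariate, with that week alone, without the week-24 array of control dog 4, and without that array and the week-8 arrays labelled dogs 5 and 9. Leaving out each dog gave 0 to 2, where the second was CSTA without ad libitum dog 5. In every other comparison the count was 0 under every alternative run.

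Removing the replicate block changed no call: CSTA at week 8 was 2.61 (adjusted p = 0.0429) and PERP at week 24 was -2.07 (adjusted p = 0.0221) without it. The EPCAM slope on AZGP1, 0.37, turned to -0.27 without the muscle arrays, -0.24 over the ad libitum arrays of weeks 4 to 12 and -0.33 without control dog 4 at week 24, and ran from -0.34 to 1.43 as each dog was left out. The PERP slope, 0.17, turned to -0.03 without the muscle arrays and -0.06 over the ad libitum arrays, and ran from -0.01 to 0.50. The causes were not tested. With a background limit of 5, CSTA was above it on 9 arrays and EPCAM on 16. At background, a GCRMA value gives no order between arrays. Over all probe sets, leaving out the week-24 array of control dog 4 took the number past limma's threshold from 323 to 123 at week 8, from 1238 to 476 at week 24, and from 87 to 6 for the change of the difference at week 24.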
